A study of Mus musculus with 9 samples.

Results

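The genes described are those of acrosome formation and sperm-egg fusion, a list of 39 mouse genes chosen by their known roles, with earlier results of these data known. Of the 39, 35 were found by symbol among the 38674 genes of the table, and Acrbp, Izumo1, Pick1 and Spaca6 were not analysed here. Of the 35, 15 encode acrosomal matrix proteins and enzymes and 6 encode proteins of the acrosomal membrane or equatorial segment. A further 4 are listed as gamete fusion proteins, and 10 as factors of acrosome biogenesis. RNA came from the testes, freed of the tunica albuginea, of male C57BL/6 mice, with 3 animals of each genotype. These were wild type Pfn3+/+ (WT), heterozygous Pfn3+/- (Het) and homozygous mutant Pfn3-/- (KO). Pfn3 encodes profilin 3, an actin-monomer-binding protein of the testis. The mutant alleles are frameshift deletions in its single exon, made by CRISPR/Cas9 in fertilized eggs and kept on C57BL/6. The methods describe 3 such lines, and which of them gave the RNA is not given in the sources used here. The mice carried no other modified allele or treatment that the labels name, and the labels give no age per animal. The methods give 2 to 6 months as the age of the sexually mature males of all experiments. The labels give each library its own genotype and replicate number without naming litters, so the p-values measure the spread between these animals.

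The acrosome is a secretory vesicle that covers the front of the sperm nucleus. In round spermatids the Golgi apparatus sends proacrosomal vesicles to the nuclear surface, where they fuse into a granule that spreads into a cap and is held to the nuclear envelope. Its matrix stores proteases, protease inhibitors, hyaluronidases and proteins that bind the zona pellucida, the coat of the egg. After exocytosis, proteins of the inner acrosomal membrane and the equatorial segment are exposed and the sperm membrane fuses with that of the egg. Most of these genes are transcribed after meiosis, in haploid spermatids, where the transcription factor CREM acts through cAMP response elements.

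To show the regulatory sequence around these genes, the 250 bases before each RefSeq transcription start (GRCm38.p6) were searched on both strands for the core of that element, TGACG, which reads CGTCA on the other strand and overlaps no other searched motif. Promoters were matched for 29 of the 35 members, and 6 of the 29 (20.7%) held the core, against 22.4% of 18403 matched genes of the table. Acr, Eqtn, Izumo4, Lyzl1, Rnf19a and Smap2 were not matched. The 6 were Gopc, Lyzl4, Spaca1, Spaca3, Tmem95 and Zpbp2. A stretch of 30 bases is given for 3 of them whose values per animal are described in the comparisons, 5′ to 3′ on the strand of the gene, with the core in capitals.
Gopc: ggttttgccggtCGTCAaaatggtcgcaga
Lyzl4: ccctgaggcccaCGTCAgacttctcacaca
Zpbp2: gtttcctttactCGTCAcaccaccaggccg
The Gopc stretch lies on the minus strand at chr10:52382268-52382297, with the core beginning 161 bases before the start, where GENCODE vM21 places no gene. The Lyzl4 stretch is on the minus strand at chr9:121587055-121587084, 111 bases before the start, in an intron of a longer Lyzl4 transcript and in an exon of the antisense gene Lyzl4os. The Zpbp2 stretch is on the plus strand at chr11:98550938-98550967, 147 bases before the start, outside any annotated gene. A match to these letters is a description of the window only.

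The libraries were QuantSeq 3′ libraries, which read the 3′ ends of polyadenylated transcripts, and values are normalized counts, gene counts divided by 1 size factor per animal. Between 3375546 and 4287335 reads per animal fell on genes, and 3 reads corresponded to 2.58 to 3.71 normalized counts. Pfn3 itself had normalized counts of 592, 383 and 373 in WT, 136, 339 and 326 in Het and 74.7, 215 and 279 in KO, in the order of replicates 1, 2 and 3 that is used throughout. Its 3′ end lies downstream of the edited stretch, so these counts do not check the genotypes. WT 1 stood apart from the other animals, with a median correlation across genes of 0.778 with the other 8, against 0.806 for Het 1 and 0.841 to 0.881 for the rest. Markers of the epididymis were at 0 in all 9 animals for 5 of 7 genes, and none of the 7 was above 7.72 normalized counts in any animal.

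KO against WT asks whether losing Pfn3 moved the transcripts of the acrosome in the whole testis. The KO animals lay below all WT animals for a few genes, among them the spermatid protease gene Sppl2c, with 376 ± 84.9 normalized counts in KO against 702 ± 104 in WT, and the lysozyme-like Lyzl4, with 198 ± 61.7 against 358 ± 129 (SD, n = 3). Most members overlapped between the genotypes. Of the 35 members, 34 reached 10 normalized counts in 3 or more of the 6 animals and were tested. None of the 34 passed the cutoffs, an adjusted p under 0.05 with a log2 fold change above 1.5 or below −1.5 (limma, Benjamini-Hochberg over 14223 genes, lowest adjusted p = 0.604), against 0.0352% of all genes tested. At an unadjusted p under 0.05 there were 2 members, Sppl2c and Tmem190 (5.88%), against 8.07% of all genes. edgeR and DESeq2 on the recovered reads also called 0 members. They gave 2 and 3 at an unadjusted p under 0.05, against 1076 of 14223 and 1038 of 14150 genes. The limma count of 2 became 4 without WT 1 (against 1240 of 13964 genes). It was 1 without WT 3 (1002 of 13849) and 1 without KO 2 (613 of 13869). The log2 fold changes were positive for 14 members and negative for 20, with a median of −0.09 against 0.02 over all genes tested, and ranged from −1.25 for Zpbp2 to 1.77 for Izumo4. Without KO 2 the split was 20 positive and 14 negative and the median 0.09, against 7133 positive, 6736 negative and 0.02 over all genes. With the values scaled by the reads counted per library the split was 22 positive and 12 negative. All genes shifted too under that scale, with 9342 positive and 4905 negative. In bulk testis, fewer cells of a type and less RNA per cell cannot be told apart.

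**Figure D1:**
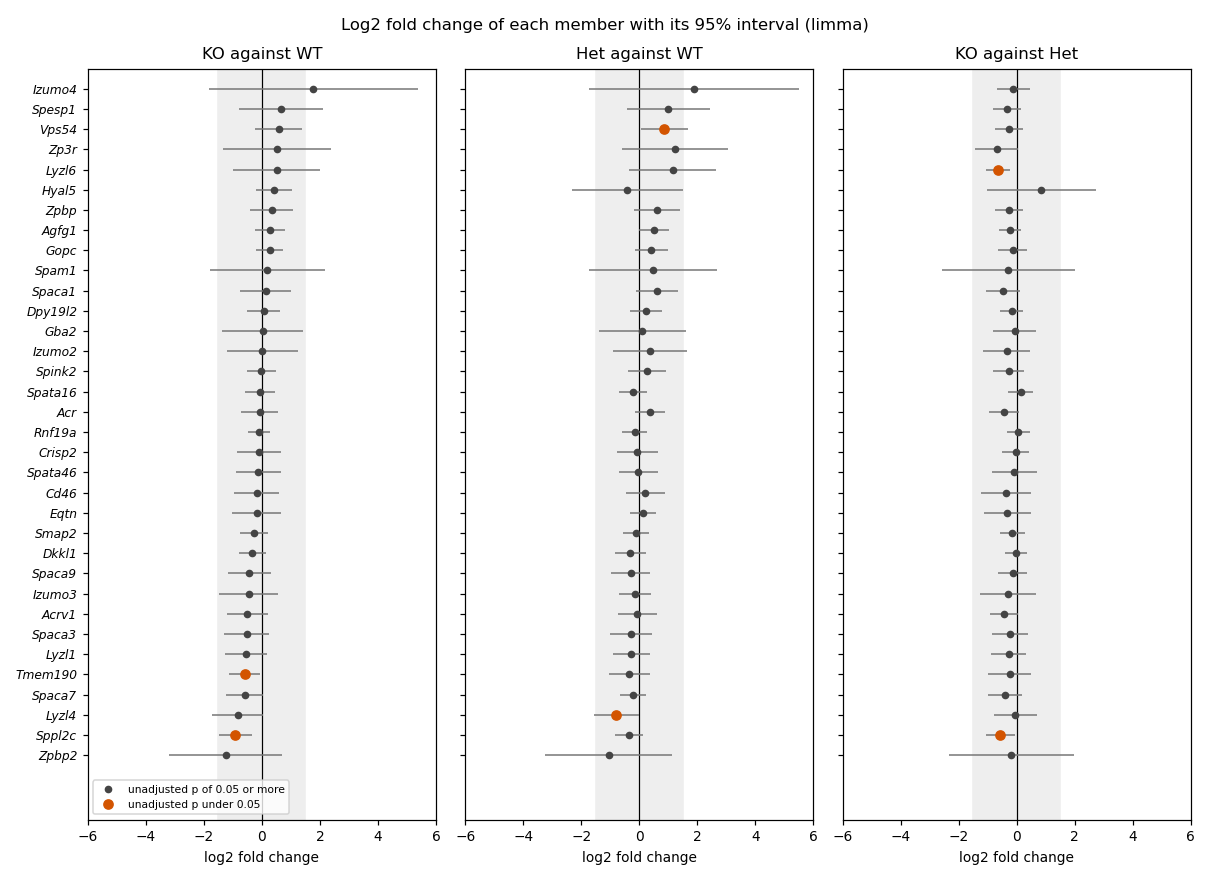
Log2 fold change (horizontal axis, log2(normalized count + 1) scale) of the 34 members tested, one line each, for each pair of genotypes, with 95% intervals from limma over 3 animals per genotype. The shaded band is 1.5 in either direction, and orange points have an unadjusted p under 0.05, 2 members in each comparison.

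Among the biogenesis factors, Sppl2c encodes an intramembrane protease of the endoplasmic reticulum of spermatids. Sppl2c (ENSMUSG00000049506, chromosome 11 from 104186327 to 104191163 on the plus strand) had normalized counts of 816, 614 and 677 in WT, 512, 643 and 505 in Het and 328, 325 and 474 in KO. Every KO animal was below every WT animal, and KO 1 and KO 2 were nearly equal. The Het mean, 553 ± 77.5 (SD, n = 3), lay between those of WT and KO. Between KO and WT the log2 fold change came to −0.91 (standard error 0.23, 95% interval −1.47 to −0.36, limma unadjusted p = 0.00663, adjusted p = 0.604). The unadjusted p was under 0.05 in all 17 alternatives run, while the adjusted p ranged from 0.142 to 0.814.

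Rnf19a, which encodes the ubiquitin ligase dorfin, had normalized counts of 2259.5, 1934 and 1918 in WT, 1582, 1774 and 2137 in Het and 1962, 1689 and 2042 in KO. Its log2 fold change was −0.10 (95% interval −0.49 to 0.28), one of the narrowest intervals of the list, and 0.10 with the reads counted per library as scale. Vps54 is a subunit of the complex that tethers vesicles returning from endosomes to the Golgi, and it had normalized counts of 21.0, 45.3 and 29.9 in WT, 63.3, 52.1 and 54.0 in Het and 50.7, 40.6 and 48.3 in KO. The WT and KO animals overlapped, and the log2 fold change was 0.58 (adjusted p = 0.632, limma), with 0.32 to 0.86 when 1 animal was left out. Gopc, a Golgi protein of vesicle transport to the acrosome, was with the authors' scale the 1 member whose KO animals all lay above the WT animals (2.94% of the members, against 9.41% of all genes). There were 5 such members with the reads counted per library as scale (14.7%, against 18.2% of all genes) and 5 without KO 2 (14.7%, against 14.0%). It had normalized counts of 59.4, 66.6 and 58.9 in WT, 103, 72.6 and 73.0 in Het and 76.4, 75.5 and 71.5 in KO, and its values are given for that reason, seen in the data. The other 6 biogenesis factors were Agfg1 and Smap2, which act on Golgi-derived vesicles, Dpy19l2 and Spata46 of the nuclear envelope, the glucosylceramidase Gba2, and Spata16 of the proacrosomal vesicles. WT and KO animals overlapped for each of the 6, with log2 fold changes from −0.28 for Smap2 to 0.28 for Agfg1.

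The lysozyme-like protein Lyzl4 of the matrix (ENSMUSG00000032530, chromosome 9 from 121577843 to 121642096 on the minus strand) had normalized counts of 506, 273 and 294 in WT, 151, 234 and 218 in Het and 249, 129.6 and 216 in KO. Both the Het and the KO animals lay below all WT animals, and WT 1 was the highest of the 9. Between KO and WT the log2 fold change came to −0.84 (standard error 0.36, limma adjusted p = 0.61), and it ranged from −1.03 to −0.56 with 1 animal left out, nearest to zero without WT 1 or without KO 2. Lyzl4 overlaps the antisense gene Lyzl4os, and whether the counting used strand is not given in the sources used here, so reads of the pair cannot be told apart. The same holds for Gba2 with Creb3 and Rgp1, Spata46 with Nos1ap, Zpbp with Spata48, Dpy19l2 with Cypt4, Gopc with Gm26741, Spaca7 with D630011A20Rik and Cd46 with A330023F24Rik, which overlap on opposite strands. Lyzl6, another lysozyme-like protein (ENSMUSG00000020945, chromosome 11 from 103631070 to 103638890 on the minus strand), had normalized counts of 115, 501 and 562 in WT, 645, 694 and 801 in Het and 469, 388 and 512 in KO. All but WT 1 lay at 388 or more, and the log2 fold change of 0.51 (standard error 0.61) was −0.23 without WT 1.

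Spaca7, an acrosomal matrix protein, had normalized counts of 574, 464 and 532 in WT, 393, 487 and 480.5 in Het and 402, 246 and 409 in KO. All KO animals lay below all WT animals (log2 fold change −0.60, standard error 0.26, limma adjusted p = 0.61), and the value was −0.36 without KO 2. Dkkl1, a Dickkopf-like acrosomal protein, had normalized counts of 7148, 5072 and 4765 in WT, 3701, 4795 and 5148 in Het and 4386, 4129.9 and 4708 in KO. Its KO animals were also below the WT animals, though the highest of KO and the lowest of WT were close (−0.34, standard error 0.19, limma adjusted p = 0.632). The Dkkl1 value was −0.16 without WT 1 and −0.14 with the reads counted per library as scale.

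Zpbp2, which binds the zona pellucida and shapes the acrosomal matrix, had normalized counts of 35.9, 134 and 176 in WT, 27.4, 146 and 22.2 in Het and 89.3, 16.4 and 40.2 in KO. The range within each genotype was wide and the genotypes overlapped, with a log2 fold change of −1.25 (95% interval −3.21 to 0.70) that was −1.94 without WT 1 and −0.65 without KO 2. Without WT 3 it was −0.81. WT 2, WT 3, Het 2 and KO 1 lay above the other animals, as they did for Akap4, described below, and the cause was not tested. Zp3r, a matrix protein also called sp56, had normalized counts of 108, 211 and 25.1 in WT, 153, 232 and 212 in Het and 166, 83.2 and 127 in KO. WT 3 was the lowest of the 9, and the log2 fold change of 0.53 was −0.32 without it. Crisp2, a cysteine-rich protein of the acrosome and tail, had normalized counts of 23331, 11851 and 12187 in WT, 13763, 12889.7 and 16456 in Het and 14873, 10750.0 and 16847 in KO. WT 1 was high and the other 8 overlapped (log2 fold change −0.11, and 0.21 without WT 1). Spink2, an inhibitor of acrosomal serine proteases, had normalized counts of 3276, 2159.9 and 2308 in WT, 4252, 2522 and 2646 in Het and 2296, 2619.8 and 2614 in KO. The KO animals lay within the WT range (log2 fold change −0.02, 95% interval −0.51 to 0.47), and the value was 0.17 without WT 1.

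Across the 15 matrix genes, 3 had KO animals all below WT animals (Dkkl1, Lyzl4 and Spaca7, 20.0% against 10.5% of all genes) and 0 had the reverse (0% against 9.41%), with a median log2 fold change of −0.11. Acrosin (Acr), the classical protease of the matrix, is given as an example outside the rule for named members, chosen after its values were seen, and had normalized counts of 375, 381 and 533 in WT, 493, 591 and 575 in Het and 310.1, 509 and 416 in KO. Spam1 and Hyal5, hyaluronidases named for their spread and so chosen after their values were seen, varied within genotypes. Spam1 had normalized counts of 57.0, 22.2 and 109 in WT, 20.8, 124 and 147 in Het and 145, 60.9 and 23.2 in KO. Hyal5 had normalized counts of 121, 83.0 and 98.5 in WT, 19.8, 133 and 153 in Het and 147, 105 and 156 in KO. Spam1 was high or low in single animals of every genotype, and for Hyal5 Het 1 alone was low. The other 4 matrix genes were Acrv1, which encodes the acrosomal antigen SP-10, the lysozyme-like Lyzl1 and Spaca3, and the zona-binding Zpbp. Their WT and KO animals overlapped, with log2 fold changes from −0.55 for Lyzl1 to 0.33 for Zpbp.

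**Figure D2:**
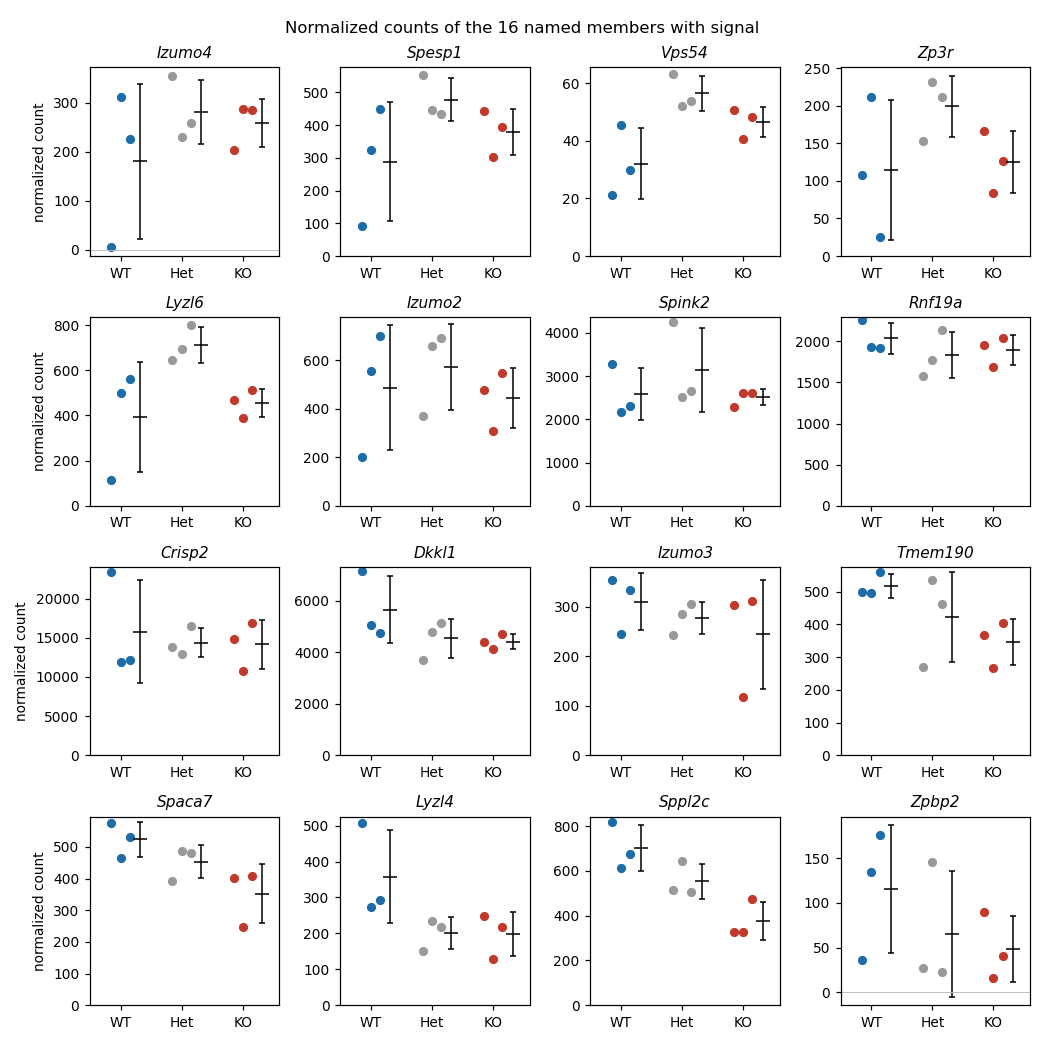
Normalized counts of 16 members (vertical axes, each from 0) in the 3 WT, 3 Het and 3 KO animals, in replicate order from left to right, with the mean and SD of each genotype in black. Sppl2c, Lyzl4, Spaca7, Tmem190 and Dkkl1 have all KO animals below all WT animals, and a single low WT animal stands out in Izumo4, Spesp1, Lyzl6, Izumo2 and Zp3r.

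Of the 6 genes of the acrosomal membrane and the equatorial segment, Tmem190, a small protein of the inner acrosomal membrane (ENSMUSG00000013091, chromosome 7 from 4782937 to 4784341 on the plus strand), had normalized counts of 498, 497 and 561 in WT, 270.2, 535 and 462 in Het and 367, 268 and 406 in KO. All KO animals lay below all WT animals, with Het 1 as low as KO 2 (log2 fold change −0.60, standard error 0.22, limma unadjusted p = 0.0309, adjusted p = 0.61). For Tmem190 the unadjusted p was under 0.05 in 10 of the 17 alternatives. Its log2 fold change ranged from −0.72 to −0.42 with 1 animal left out. Spesp1, the equatorial segment protein 1, had normalized counts of 91.6, 324 and 449 in WT, 553, 447 and 434 in Het and 442, 304 and 393 in KO. WT 1 was the lowest of the 9, and the log2 fold change of 0.66 became −0.024 without it. Spaca1, which shapes the acrosome from its inner membrane and is named after its Het values were seen, had normalized counts of 331, 538 and 707 in WT, 718, 819 and 759 in Het and 665, 384 and 643 in KO, with WT and KO overlapping. For Cd46, a complement regulator, Eqtn, which encodes equatorin, and Spaca9 the groups also overlapped. Over the 6 genes 2 log2 fold changes were positive and 4 negative, with a median of −0.18.

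Grouped here as fusion genes were Izumo2, Izumo3 and Izumo4, listed as paralogs of Izumo1, and Tmem95, which encodes a sperm membrane protein needed for fusion with the egg. Izumo2 had normalized counts of 203, 558 and 701 in WT, 369, 657 and 692 in Het and 477, 309.6 and 547 in KO. Its log2 fold change was 0.01 (95% interval −1.22 to 1.23), and −0.53 without WT 1. Izumo3 had normalized counts of 353, 245 and 333 in WT, 242, 286 and 305 in Het and 304, 118 and 311 in KO. KO 2 was the lowest, and the log2 fold change of −0.45 was 0.0046 without it.

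Izumo4 had normalized counts of 4.95, 311 and 226 in WT, 354, 229 and 259 in Het and 203, 286 and 286 in KO. WT 1 held 4.95 normalized counts, which is 4 reads, whereas the other 8 animals lay between 203 and 354. Its log2 fold change of 1.77 (95% interval −1.82 to 5.37) was −0.054 without WT 1. Tmem95 was listed at 0 in all 9 animals, where 3 reads would have been 2.58 to 3.71 normalized counts, a limit that covers counting error only. Whether its reads were given to another locus was not tested. None of the 3 Izumo1 paralogs had separate groups, and Izumo1 itself was not analysed here.

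KO animals all below WT animals were found for 5 of the 34 members (14.7%), Sppl2c, Lyzl4, Spaca7, Tmem190 and Dkkl1, against 10.5% of all genes tested. With the reads counted per library as scale there were 3 (8.82%, against 5.29%). With 1 animal left out, separate groups became more frequent among all genes too. The members lying below were 10 without KO 3 (29.4%, against 14.8%), 8 without WT 1 (23.5%, against 17.5%) and 8 without WT 2 (23.5%, against 15.2%). Their number was 6 without KO 2 (17.6%, against 14.7%). It was 5, a share below that of all genes, without KO 1 (14.7%, against 14.97%) or WT 3 (14.7%, against 16.7%). The reverse, 1 member (2.94%, against 9.41%), became 2 without WT 1 (5.88%, against 14.7%) and 2 without KO 1 (5.88%, against 14.9%). It became 3 without WT 2 (8.82%, against 15.2%) and 5 without KO 2 (14.7%, against 14.0%). How finely the comparison could resolve a change is given by the intervals. The median standard error was 0.31, and the 95% interval lay within 1 of zero on the log2 scale for 12 members and within 1.5 for 27. For Zpbp2, Lyzl4, Spam1, Lyzl6, Zp3r, Spesp1 and Izumo4 it reached beyond 1.5 and so held changes of that size.

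Het against WT asks whether 1 lost allele was enough to move these transcripts. None of the 34 members tested was called, against 0% of 14216 genes (limma, lowest adjusted p of a member 0.779). At an unadjusted p under 0.05 there were 2 members (5.88%, against 3.34% of all genes), Lyzl4 at −0.80 (standard error 0.32) and Vps54 at 0.86 (standard error 0.33). edgeR and DESeq2 called 0 members and gave 2 and 1 at that level, against 416 of 14216 and 413 of 14111 genes. The limma count was 0 without WT 1 (against 375 of 13940 genes), Het 1 (182 of 13892) or Het 3 (194 of 13889). It was 1 without Het 2 (745 of 13763), and 3 without WT 2 (325 of 13863) or WT 3 (603 of 13837). The log2 fold changes split evenly, 17 positive and 17 negative, with a median of 0.03 against 0.01 over all genes. With the reads counted per library as scale 22 were positive and 12 negative, against 8842 positive and 5270 negative among all genes. Het animals lay all above WT animals for 5 members (14.7%, against 6.76% of all genes), namely Gopc, Agfg1, Spaca1, Vps54 and Lyzl6. Lyzl4 alone lay below (2.94%, against 6.49%). The 5 became 8 with the reads counted per library as scale (23.5%, against 11.6%), 9 without Het 1 (26.5%, against 10.1%), 9 without WT 3 (26.5%, against 12.8%) and 8 without Het 2 (23.5%, against 14.6%). Those all below became 5 without Het 2 (14.7%, against 15.4%), 5 without WT 2 (14.7%, against 11.7%) and 3 without Het 3 (8.82%, against 10.3%).

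The KO and Het animals were then set against each other, a comparison that shares its KO animals with the first and its Het animals with the second. None of the 34 members was called (limma, lowest adjusted p = 0.973), against 0.0558% of 14343 genes. At an unadjusted p under 0.05 there were 2 members (5.88%, against 3.56%), Lyzl6 at −0.65 (standard error 0.17, unadjusted p = 0.00796) and Sppl2c at −0.57 (standard error 0.21, unadjusted p = 0.0326), both by limma with an adjusted p of 0.973. edgeR and DESeq2 called 0 members, with 2 at that level each, against 467 of 14343 and 419 of 14218 genes. The limma count was 1 without Het 2 (against 507 of 13940 genes) or Het 3 (333 of 14028). It was 3 without Het 1 (724 of 14012) or KO 3 (417 of 14007). Negative log2 fold changes were given by 31 members and positive ones by 3 (Hyal5, Rnf19a and Spata16). The median was −0.26 against −0.0027 over all genes tested, and ranged from −0.32 to −0.10 with 1 animal left out. The value nearest to zero, −0.10, and a split of 23 negative to 11 positive came without KO 2. The lists described below shifted too in KO against Het. Round spermatid markers were 0 positive and 7 negative (median −0.27), and elongating spermatid markers 1 positive and 6 negative (−0.29). The other acrosome and fusion genes were 3 positive and 24 negative (−0.17), and the spermatocyte markers 5 positive and 1 negative (0.12). KO animals lay all below Het animals for 5 members, Lyzl6, Sppl2c, Spaca1, Acrv1 and Vps54 (14.7%, against 4.9% of all genes), and all above for 0 (0%, against 5.12%). The 5 became 11 without Het 1 (32.4%, against 13.0% of all genes), 10 without Het 2 (29.4%, against 9.97%) and 8 without KO 3 (23.5%, against 9.48%). The 95% interval lay within 1 of zero for 23 members and within 1.5 for 31, the exceptions being Spam1, Zpbp2 and Hyal5.

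Taking each animal by itself, KO 2 was the lowest of the 9 in 14 of 34 members (41.2%), against 15.4% of all genes, and the highest in 0. WT 1 was the lowest in 9 (26.5%, against 28.6% of all genes) and the highest in 12 (35.3%, against 25.5%). The mean log2 level over the members was 8.63 ± 0.19 for WT, 8.78 ± 0.18 for Het and 8.55 ± 0.26 for KO (SD, n = 3), and the KO mean included 8.25 in KO 2. Within genotypes the members were somewhat tighter than the genes at large, with a median pooled SD of 0.38 against 0.45 on the log2 scale. Smap2 (0.16), Rnf19a (0.17) and Gopc (0.18) were the tightest, and Izumo4 (1.85), Spam1 (1.33) and Zpbp2 (1.29) the widest.

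**Figure D3:**
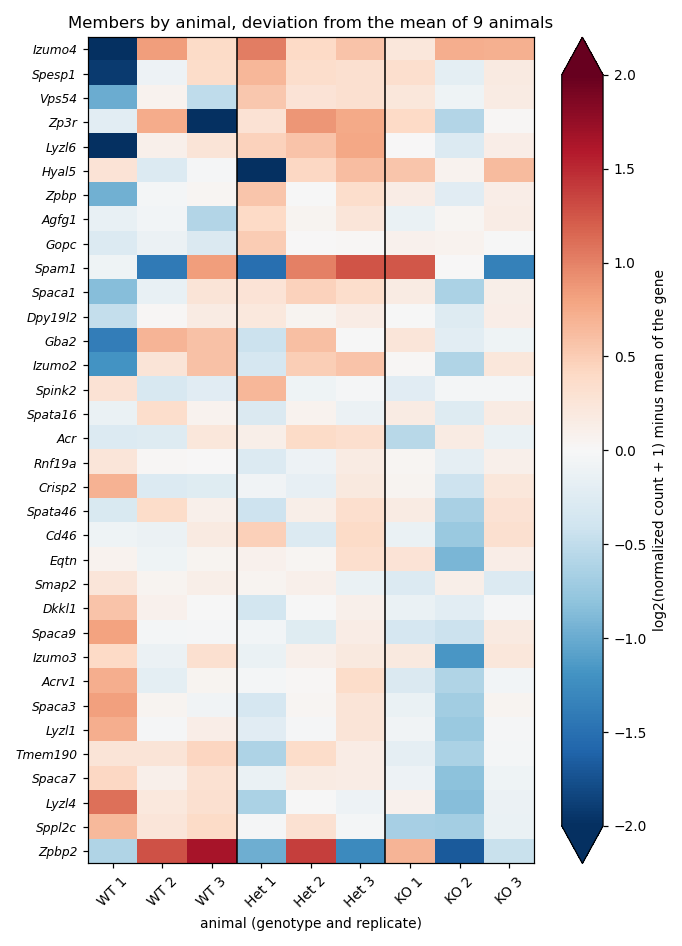
Each of the 34 members (rows, ordered by log2 fold change in KO against WT) in each of the 9 animals (columns), as log2(normalized count + 1) minus the mean of the gene over the 9 animals, with colours ending at 2 in either direction. The blue column of KO 2, lowest in 14 members, and the strong colours of WT 1, lowest in 9 and highest in 12, are seen beside pale columns for KO 1 and KO 3.

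The other genes of the same processes were taken from a list of 31, of which 28 were in the table and 27 were tested in each comparison. In KO against WT 0 of the 27 were called by limma or edgeR and 1 by DESeq2, and 9 (all negative) had an unadjusted p under 0.05 with limma (33.3%, against 8.07% of all genes). The 27 comprised 6 positive and 21 negative log2 fold changes, with a median of −0.49, and the KO animals lay all below the WT animals for 9 (33.3%, against 10.5% of all genes) and all above for 1 (3.7%, against 9.41%). Without KO 2 the 9 with an unadjusted p under 0.05 became 3 (against 613 of 13869 genes). With the reads counted per library as scale 18 of the 27 were negative, against 4905 of 14247 genes.

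Of the 9, Atg7, an activating enzyme of autophagy that acrosome formation needs, had normalized counts of 244, 178 and 185 in WT, 77.5, 174 and 119 in Het and 99.6, 104 and 117 in KO. KO and WT animals did not overlap (log2 fold change −0.90, standard error 0.21, limma adjusted p = 0.583). The actin-like proteins of the layer between acrosome and nucleus were Actl7a at −0.75 and Actl9 at −0.82. The fusion proteins Dcst1 and 4930451I11Rik were at −0.92 and −1.23. The sperm membrane protein Spaca4, the Rab regulator Tbc1d20 and the acrosomal protein Fam170b were at −0.59, −0.77 and −0.71. None of these 9 had a limma adjusted p under 0.583. The testis chaperone Calr3 had normalized counts of 917, 149 and 182 in WT, 25.5, 156 and 47.6 in Het and 86.7, 31.9 and 62.6 in KO. WT 1 was far above the other 8 animals, and the log2 difference between KO and WT was −2.37 (standard error 0.76). Calr3 passed the cutoffs with DESeq2 alone (adjusted p = 0.0487, over a range of 0.0487 to 0.814 for the 17 alternatives), and was −1.54 without WT 1.

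In Het against WT 0 of the 27 were called by limma and 0 by edgeR, and 1 was called by DESeq2 (Csnk2a2). At an unadjusted p under 0.05 with limma there were 4 (14.8%, against 3.34% of all genes). There 16 log2 fold changes were negative, and 13 with the reads counted per library as scale (against 5270 of 14112 genes). Het animals lay all below WT animals for 5 (18.5%, against 6.49% of all genes) and all above for 0 (0%, against 6.76%). In KO against Het 1 was called, against 0.0558% of all genes, and 1 had an unadjusted p under 0.05 (3.7%, against 3.56%). The log2 fold changes were negative for 24 and positive for 3. KO animals lay all below Het animals for 6 (22.2%, against 4.9% of all genes) and all above for 0 (0%, against 5.12%). The gene called was Cylc1, which encodes a cylicin of the cytoskeleton under the acrosome. Cylc1 had normalized counts of 116, 1243 and 1439 in WT, 1062, 952 and 1084 in Het and 205, 151 and 219 in KO. The KO animals lay far below the Het animals, as did WT 1. The log2 fold change in KO against Het was −2.44 (standard error 0.19, limma adjusted p = 0.0262, range 1.34e-24 to 0.99995 over 17 alternatives). The call was kept in 10 of the 17 and lost in 7, namely with all 9 animals in 1 fit, with the replicate block and without Het 1, Het 3, KO 1, KO 2 or KO 3. The value itself stayed at −2.54 to −2.28 with 1 animal left out. In KO against WT, Cylc1 was at −1.64 (standard error 0.96, adjusted p = 0.635) and, without WT 1, at −2.81 (adjusted p = 0.0147, range 0.0147 to 0.814).

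Markers of the germ cell stages that make and carry the acrosome were read in the same animals. All 7 markers of elongating spermatids (Tnp1, Tnp2, Prm1, Prm2, Gapdhs, Akap4 and Odf1) were negative in KO against WT, there and in each of the 17 alternatives, with a median of −0.80, 0 were called and 4 had an unadjusted p under 0.05. Their summed level was 246472 to 260728 normalized counts in WT, 185236 to 228033 in Het and 129243 to 207056 in KO, the lowest in KO 2. The 7 round spermatid markers had a median of −0.45, with 3 positive and 4 negative, and summed to 5949 to 7400.1 in WT, 5711 to 6603 in Het and 3232 to 6000.3 in KO, again lowest in KO 2. The 6 spermatocyte markers tested were all positive with a median of 0.65, 0 were called, and their list summed to 4529 to 6313 in WT, 4743 to 7560.4 in Het and 7272 to 8163 in KO. Leydig cell, Sertoli cell, spermatogonia, erythrocyte and macrophage markers had medians of 0.02, 0.34, 0.15, −0.08 and −0.10, with 0 called. The Sertoli cell markers were 5 positive and 2 negative (Amhr2 at −1.43 and Clu at −0.19). The 4 spermatogonia markers tested were 2 positive (Kit at 0.68 and Gfra1 at 0.38) and 2 negative. Single markers with an unadjusted p under 0.05 (limma), named after their values were seen, all had an adjusted p of 0.529 or more. Those of the elongating spermatids were Prm2 at −1.01, Odf1 at −0.87, Tnp2 at −0.80 and Gapdhs at −0.80. The spermatocytes gave Sycp1 at 0.76 and Sycp3 at 0.71, and the round spermatids Tssk1 at −1.002. Wt1 of the Sertoli cells was at 2.48 and Stra8 of the spermatogonia at −0.89. The part of these stages in the members' values was not tested.

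**Figure D4:**
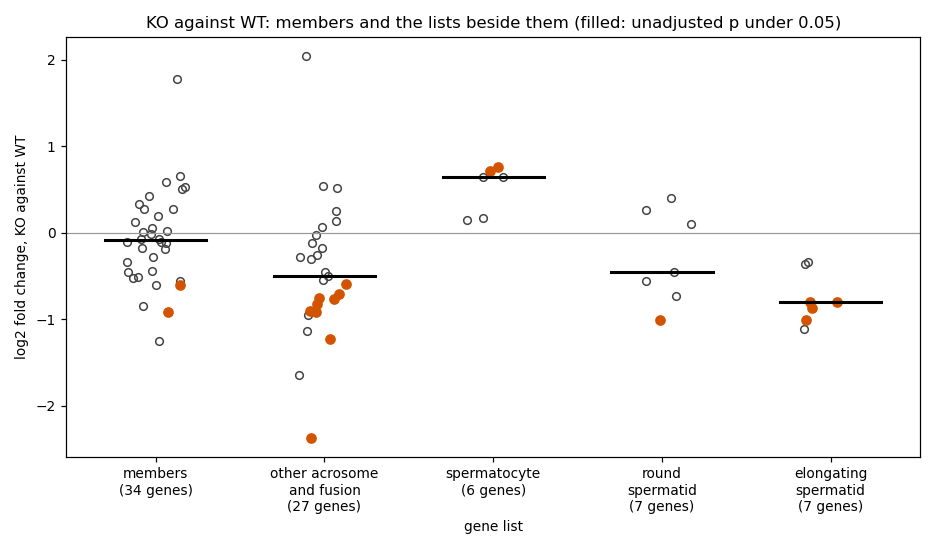
Log2 fold change in KO against WT (vertical axis) of each tested gene of the members, the other acrosome and fusion genes, and the spermatocyte, round spermatid and elongating spermatid markers (horizontal axis). Filled points have an unadjusted p under 0.05 and bars are medians, −0.09 for the members, −0.49 for the other acrosome and fusion genes, 0.65, −0.45 and −0.80 for the marker lists.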

How the data were processed

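RNA of 9 testes, 3 per genotype, was sequenced from QuantSeq 3′ libraries. Per the labels and the methods, the authors trimmed reads with Trim Galore 0.4.5, aligned them with HISAT2 2.1 to GRCm38, counted genes with StringTie 1.3.3, removed pseudogenes by biotype and divided the counts by DESeq2 size factors. The deposited signal values are these normalized counts, 1 column per animal. All 35 members were counted on assembled loci. Divided by the value of 1 read, 100% of the values above 0 came out whole in every animal (tolerance 0.01 of a read), so the reads behind them were recovered.

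A gene was tested if 3 or more of the animals compared reached 10 normalized counts. Moderated tests with a mean-variance trend were run in limma 3.58.1 (R 4.3.3) on log2(value + 1), a scale on which weakly expressed genes show too small a change. Only the animals of both genotypes compared entered a fit, p-values are two-sided, and the Benjamini-Hochberg adjustment covered all genes tested. The cutoffs, an adjusted p under 0.05 and a log2 fold change over 1.5, follow the methods of the study. Alternatives were edgeR 4.0.16 (quasi-likelihood, RLE factors) and DESeq2 1.42.0 (Wald test) on the recovered reads, other pseudocounts, filters and scales, all 9 animals in 1 fit, the replicate block and each animal left out. The functions were tested on simulated data.

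The members and the lists were chosen with earlier results of these data known. Named with values per animal were the members with an unadjusted p under 0.05 in any comparison, the 4 highest and the 4 lowest log2 fold changes in KO against WT, the 4 highest WT means and all fusion genes found, 17 in all. Of the other acrosome and fusion genes those with an unadjusted p under 0.05 in KO against WT were named. No pair of replicates of a genotype agreed within counting noise, as 35.3% to 70.5% of genes differed by over 2 counting SDs. Same-numbered animals of different genotypes had correlations of deviations from −0.14 to 0.19, so the numbers were not taken to pair them. Positions are from GENCODE vM21 on GRCm38, and promoter sequences are from RefSeq. Python 3.11.15, numpy 2.4.6, pandas 2.3.3 and matplotlib 3.10.9 were used. The raw reads were not used here.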

Additional observations from a re-analysis of the deposited data

How the results depend on the processing

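The count of members called was 0 in each of the 3 comparisons under all 17 alternatives, and the median over the members stayed within the spread between animals of its value in the report under each of them. With 3 animals per genotype, members with wide intervals could have changed by more than 1.5 on the log2 scale without a call. Scaling by the reads counted per library was chosen after seeing the data. It shifted the median of all genes to 0.22 in KO against WT and 0.16 in Het against WT, and the members' medians to 0.12 and 0.19. Under it the log2 fold changes in KO against WT changed sign for Crisp2 (0.10), Rnf19a (0.10) and Spink2 (0.19). Izumo2 changed sign with edgeR (−0.11) and with DESeq2 (−0.11), and Spink2 with TMM factors (0.0030). With each animal left out in turn, the range in KO against WT was −0.28 to 0.21 for Crisp2, −0.53 to 0.36 for Izumo2, −0.69 to 0.0046 for Izumo3, −0.054 to 2.80 for Izumo4, −0.23 to 0.91 for Lyzl6, −0.024 to 1.12 for Spesp1, −0.13 to 0.17 for Spink2 and −0.32 to 1.19 for Zp3r. The cause was not tested.

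With the replicate block 0 members were called in each comparison, and the calls among all genes went from 5 to 0 in KO against WT, stayed at 0 in Het against WT and went from 8 to 0 in KO against Het. Cylc1 was at −2.44 with the block in KO against Het (adjusted p = 0.489). DESeq2 called 100 genes in KO against WT and 31 in Het against WT, and 38 in KO against Het, against 5, 0 and 8 with limma. Without WT 1, 49 genes were called in KO against WT, and without Het 2, 39 in KO against Het.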

Other observations

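Several genes of the sperm head and tail outside the members differed widely between animals of the same genotype. They were chosen after their values were seen. Spaca5, a lysozyme-like acrosomal protein, was listed at 0 in WT 1 and had 88.8 and 118 normalized counts in the other WT animals, 98.7 to 120.0 in Het and 76.4 to 97.4 in KO. Glipr1l1, a sperm surface protein, had 163 normalized counts in WT 1 and 417 to 710.1 in the other 8 animals. Akap4, the main anchoring protein of the fibrous sheath of the tail, had normalized counts of 45.8, 2573 and 2174 in WT, 70.9, 2209.7 and 106 in Het and 1770.2, 105 and 137 in KO. High and low animals of Akap4 occurred in each genotype, and between KO and WT it stood at −1.11 on the log2 scale (standard error 1.84, limma adjusted p = 0.81). Csnk2a2, a catalytic subunit of casein kinase 2 whose loss is known to give round-headed sperm, had normalized counts of 167, 239 and 313 in WT, 76.5, 35.4 and 57.1 in Het and 359, 66.8 and 48.3 in KO. Het and WT animals did not overlap for Csnk2a2 (log2 fold change −2.09, standard error 0.38, limma adjusted p = 0.779, from 0.0033 with DESeq2 to 0.940 over the 17 alternatives), and KO 1 was the highest of the 9.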
